A study of Homo sapiens with 10 samples.

Results

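The 95 human genes whose symbol names a potassium channel subunit (the KCN symbols that end in a subfamily code and a number) were examined in GIST-T1 cells. They were found by their symbols alone, among 58381 gene rows, and no measured value entered the choice. GIST-T1 is an established cell line from a metastatic gastrointestinal stromal tumour, a tumour of the lineage of the interstitial cells of Cajal, which pace the gut. RNA sequencing compared 4 derivative lines, named InsE, InsF, InsG and InsH and labelled as insulator KO, with the control line, whose genotype is given as WT, in 2 libraries per group. The study asked how disruption of insulators bound by CTCF, the protein that marks boundaries between chromosome loops, affects expression in cells whose succinate dehydrogenase (SDH) is intact. Which insulator each letter stands for, how many clones a line holds and whether its libraries came from separate cultures are not in the labels. The p-values thus rest on library-to-library spread that may be purely technical.

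Potassium channels let potassium ions leave the cell and so set its resting voltage and end its electrical events. Voltage-gated pores open on depolarisation, calcium-activated channels open when calcium rises inside the cell, and inward rectifiers and two-pore-domain channels hold the resting voltage, while auxiliary subunits tune the pores. In the pacemaker cells of the gut and the smooth muscle they drive, these currents shape the slow electrical waves, and the ether-a-go-go related channel encoded by KCNH2 is known in interstitial cells of Cajal.

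The libraries held 9399554 to 42499885 expected counts, and replicate 1 was the deeper library in each group. All 9 marker genes of stromal tumour and Cajal cells, among them KIT and ANO1, were at 1 TPM or more in both libraries of every group. Their summed level was 2653 to 2851 TPM in the 4 lines and 3525 to 3543 TPM in control. CD34 was the largest part of that sum (1447 to 1710 TPM). KIT had 344 to 507 TPM in the 4 lines and 716 to 724 TPM in control. TPM is a library's share of transcripts, corrected for length. The 8 markers of enteric neurons and glia summed to at most 0.52 TPM in the 4 lines and 0.09 TPM in control, and the 4 endothelial markers to at most 0.69 TPM in the 4 lines and 0.25 TPM in control. Of the other lists, blood cell markers summed to 3.8 to 6.67 TPM in the 4 lines and 4.64 to 5.28 TPM in control. The epithelial list, which holds the keratins KRT8 and KRT18, summed to 194 to 255 TPM in the 4 lines and 268 to 278 TPM in control. Most of it was KRT18 (178 to 252 TPM), while EPCAM reached at most 0.96, CDH1 0.04 and KRT20 0 TPM. The smooth muscle list summed to 138 to 179.8 TPM in the 4 lines and 161 to 164 TPM in control. Most of it was SMTN (131 to 159 TPM), while MYOCD reached at most 0.48, MYH11 0.35, CNN1 0.22 and DES 0 TPM.

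A minority of the channel genes reached 1 TPM in GIST-T1 cells. Of the 95 genes, 13 had no count in any library, 82 had a count, and 23 reached 1 TPM in both libraries of some group. Of those 23, 16 did so in all 5 groups. The number at 1 TPM or more was 18 for InsE, 20 for InsF, 21 for InsG and 20 for InsH, against 22 for control. By family the 23 were 6 of 40 voltage-gated pore genes, 4 of 12 auxiliary genes, 6 of 12 calcium- or sodium-activated genes, 3 of 16 inward rectifiers and 4 of 15 two-pore-domain genes. The share of all 58381 gene rows at 1 TPM or more was not counted, so these numbers do not set channel genes apart from other genes. The count filter used below kept 35 of the 95 genes and 15554 of the 58381 rows. The summed TPM of the 95 genes was 148 to 187 in the 4 lines and 156 to 157 in control.

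One gene stood above all others on the TPM scale. KCNH2, which encodes the hERG channel that repolarises the heart, had 53.0 and 51.6 TPM in InsE, 66.1 and 67.3 TPM in InsF, 62.5 and 66.3 TPM in InsG and 67.6 and 69.2 TPM in InsH, against 57.6 and 57.5 TPM in control. It made up 34.6% to 38.6% of the summed potassium channel TPM in the libraries of the 4 lines and 36.6% to 37.0% in those of control. The next genes by mean TPM over the groups were KCNMB2 (11.9 TPM), KCNE4 (10.7 TPM), KCNK5 (10.7 TPM), KCNMB3 (9.06 TPM) and KCNJ15 (7.88 TPM). Each overlapped with its neighbour in this order over the 10 libraries, a range that pools all 5 groups. Within a group neighbours could still separate, as KCNK5 (8.96 and 8.57 TPM) and KCNMB3 (5.10 and 5.64 TPM) did in control. No library of any other gene reached KCNH2's lowest level of 51.6 TPM.

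**Figure D1:**
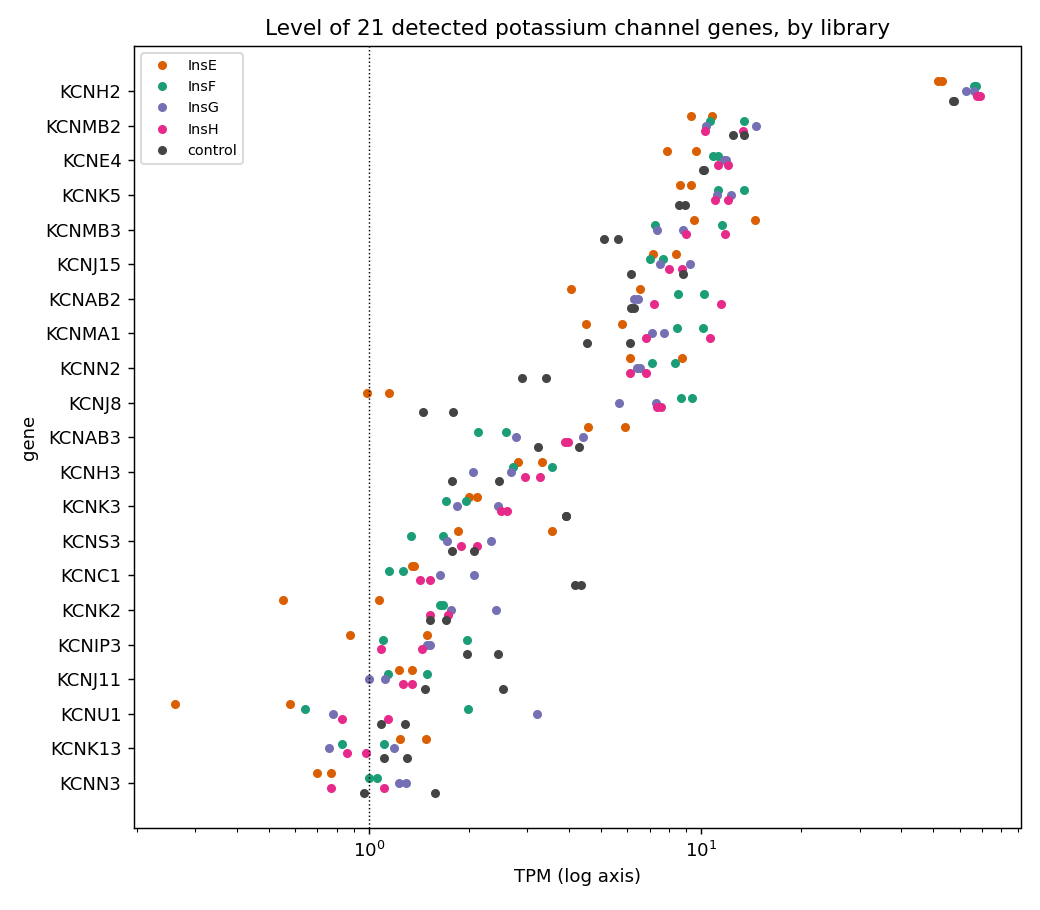
TPM (log axis) of 21 of the 23 potassium channel genes at 1 TPM or more in both libraries of some group, ordered by mean level; each dot is 1 library, coloured by group, and the dotted line marks 1 TPM. KCNH2 lies at 51.6 to 69.2 TPM, and the other genes lie at 14.7 TPM or less.

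A filter on low counts (edgeR filterByExpr, minimum count 10) left 35 of the 95 genes for testing among 15554 genes. A gene was called at an adjusted p under 0.05 in edgeR's quasi-likelihood test, with the Benjamini-Hochberg method run across the 15554 genes. InsE had 9 called members, 5 higher and 4 lower than control, where 23.2% of all tested genes were called (10.8% higher, 12.4% lower). InsF had 12 called members (8 higher, 4 lower), where 22.3% of all genes were called (10.9% higher, 11.3% lower). InsG had 9 (5 higher, 4 lower), where it was 20.3% (9.86% higher, 10.5% lower), and InsH had 10 (7 higher, 3 lower), where it was 18.4% (8.95% higher, 9.46% lower). Averaged over the 4 lines, 15 members differed from control (7 higher, 8 lower), where 27.6% of all genes did (13.1% higher, 14.5% lower), and the count was 6 without control replicate 1 and 9 without control replicate 2. With library sizes alone as the scaling it split into 8 higher and 5 lower. As shares of the 35 members these are 25.7%, 34.3%, 25.7%, 28.6% and 42.9%, each above that of all genes, a difference that was not tested. Members that passed the filter through a high group had to be expressed there, so these shares say nothing of the 60 untested genes.

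The same control libraries enter each of these comparisons. The median log2 change of the 35 members was -0.12 in InsE, -0.37 in InsF, -0.06 in InsG, -0.28 in InsH and -0.27 for the mean of the lines, beside 0.01 over all genes in each. Of the 35, KCNH5, KCNJ15 and KCNN2 were called higher in all 4 lines and KCNC1 and KCNK3 lower in all 4. Over all tested genes 3.01% were higher in all 4 lines and 4.23% lower in all 4. A call in some line was made for 16 members, and 6 of those were called in exactly 1 line. KCNJ8 alone was called in opposite directions in different lines. The lines differed among themselves in 6 members, where 13.2% of all genes did, and InsE differed from the mean of InsF, InsG and InsH in 12 members (5 higher, 7 lower), where 24.2% of all genes did (11.4% higher, 12.8% lower).

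**Figure D2:**
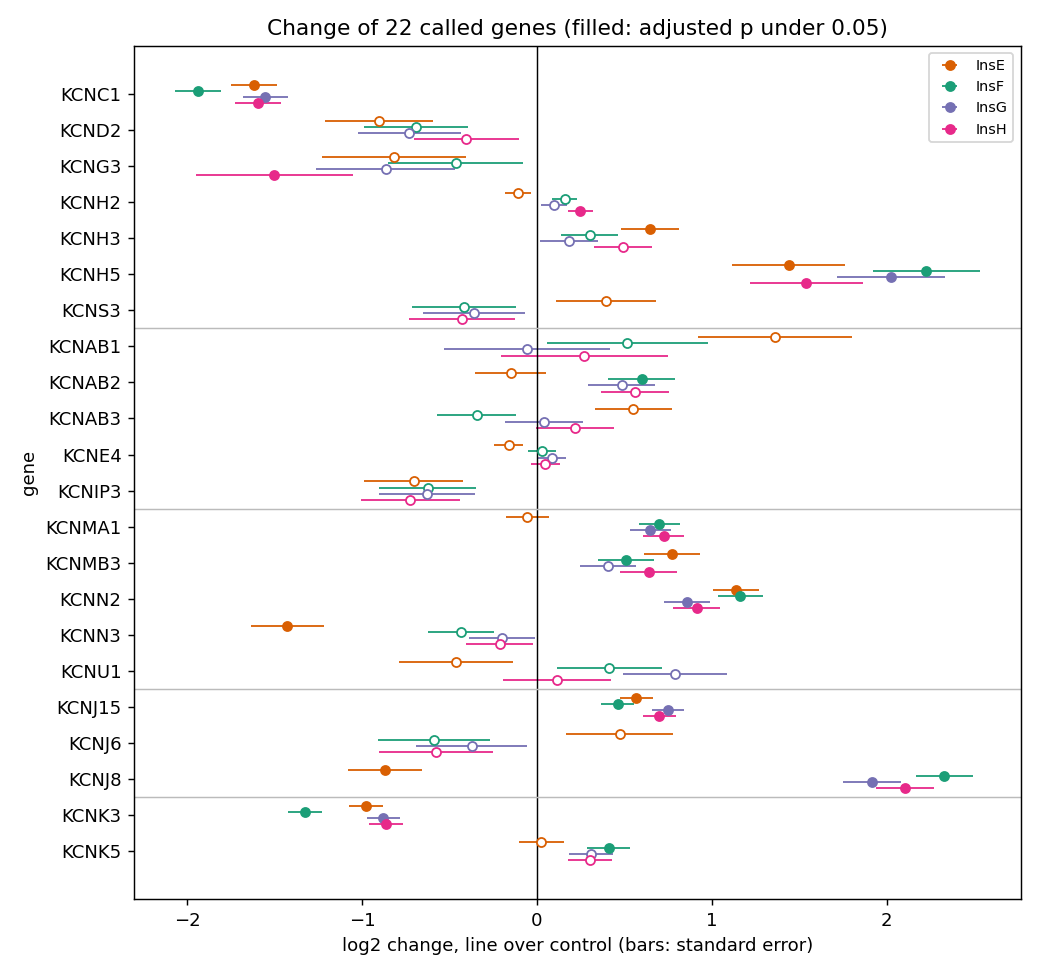
log2 change (horizontal axis) of each line over control, with standard error, for 22 of the 24 members called in any of the 7 comparisons, grouped by family from top to bottom (voltage-gated pores, auxiliary subunits, calcium- or sodium-activated, inward rectifiers, two-pore-domain). Filled dots have an edgeR adjusted p under 0.05; KCNC1 lies at -1.94 to -1.55 in all 4 lines, and KCNJ8 lies at -0.87 in InsE but at 1.92 to 2.33 in InsF, InsG and InsH.

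Among the voltage-gated pores, KCNC1 fell in all 4 lines. It encodes Kv3.1, a fast channel that lets neurons fire at high rates, and lies at chr11:17734774-17856804 on the plus strand (GRCh38). On the scale of CPM (counts divided by library size, scaled by TMM), KCNC1 had 6.75 and 6.67 CPM in InsE, 5.18 and 5.65 CPM in InsF, 6.35 and 8.14 CPM in InsG and 6.30 and 7.54 CPM in InsH, against 20.8 and 20.5 CPM in control. All 8 line libraries lay below both control libraries, with no overlap. The log2 change was -1.62 ± 0.13 for InsE, -1.94 ± 0.13 for InsF, -1.55 ± 0.13 for InsG and -1.60 ± 0.13 for InsH (SE, n = 2 libraries each; edgeR adjusted p = 4.75e-05, 1.48e-05, 6.03e-05 and 5.83e-05 in that order). The call was kept in each line and in their mean (-1.68 ± 0.09, SE) under every alternative run, and the difference among the lines did not pass the test (edgeR adjusted p = 0.245).

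The stretch before the first listed RefSeq start of KCNC1 (RefSeq, GRCh38.p14) is shown 5′ to 3′ because the gene fell in every line, and capitals mark the GC box GGGCGG or its reverse complement.
KCNC1 promoter, chr11:17734531-17734773, plus strand: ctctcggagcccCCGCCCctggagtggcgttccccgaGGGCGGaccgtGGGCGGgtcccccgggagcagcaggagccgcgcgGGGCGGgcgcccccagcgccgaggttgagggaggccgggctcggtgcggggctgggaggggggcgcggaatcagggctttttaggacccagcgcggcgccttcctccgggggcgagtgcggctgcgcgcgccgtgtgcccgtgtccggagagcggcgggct
Its 250-base window held 36 CG dinucleotides, against a median of 11 over all 35116 promoters of the table, and 4 GC boxes, a motif found at least once in 42.6% of those promoters. No match was found in it to the core of the CTCF motif, which 2.02% of the promoters held.

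KCNC1 lies across the gene SERGEF on the opposite strand, and no source used here states the strand setting of the counting. The exons of the 2 genes share 0 bases. SERGEF, named here after its values were seen, changed by -0.11, -0.53, -0.27 and -0.37 on the log2 scale in InsE, InsF, InsG and InsH, and was called in the last 3 of these (edgeR adjusted p = 0.00219, 0.0497 and 0.0166 in that order).

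The ether-a-go-go family changed unequally. KCNH5, which encodes Eag2, had the largest rise in InsF after KCNJ8 among the 35 tested members. It had 2.45 and 2.22 CPM in InsF and 1.16 to 2.15 CPM in the other lines, against 0.604 and 0.359 CPM in control, a level below 1 TPM in every library. No line library overlapped with control. The log2 change was 1.44 ± 0.32 for InsE, 2.23 ± 0.31 for InsF, 2.03 ± 0.31 for InsG and 1.54 ± 0.32 for InsH (SE; edgeR adjusted p = 0.0115, 0.000928, 0.00196 and 0.00988 in that order). With libraries left out 1 at a time, as in all such statements here, the InsE call was lost without InsE replicate 1 or control replicate 2 (log2 change 1.16 to 1.21, edgeR adjusted p = 0.0829 to 0.136), and in DESeq2 (adjusted p = 0.0742). The InsH call was lost without InsH replicate 1 or control replicate 2 (log2 change 1.21 to 1.25, edgeR adjusted p = 0.0772 to 0.109), and in DESeq2 (adjusted p = 0.0617). Per length the separation was smaller, with 0.34 and 0.15 TPM in InsE against 0.23 and 0.13 TPM in control, and on the log2(TPM + 1) scale InsE and InsH did not pass (limma adjusted p = 0.763 and 0.396), nor did they on log2(TPM + 0.1) (0.698 and 0.296), while the deposited effective length of KCNH5 varied from 3508 to 11069 bases between libraries.

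KCNH2 itself moved little. Its count level was 116 and 121 CPM in InsE, 136 and 148 CPM in InsF, 128 and 145 CPM in InsG and 145 and 157 CPM in InsH, against 128 and 126 CPM in control, and the lines lay on both sides of control. It was higher in InsH (0.25 ± 0.07, SE; edgeR adjusted p = 0.0418), a call that was lost without InsE replicate 1 or 2, InsH replicate 1 or 2 or control replicate 1 or 2 (log2 change 0.19 to 0.30, edgeR adjusted p = 0.0526 to 0.196). InsE was below the mean of the other 3 lines (-0.28 ± 0.06; 0.0106), a call that was lost without InsE replicate 1 (log2 change -0.24, edgeR adjusted p = 0.105).

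KCNH3, an Elk-type channel, had 6.88 and 8.36 CPM in InsE, 5.32 and 6.59 CPM in InsF, 5.75 and 4.92 CPM in InsG and 6.38 and 7.12 CPM in InsH, against 5.10 and 4.41 CPM in control. 1 of the InsG libraries lay within the control range, and the other line libraries were above it. It was higher in InsE (0.65 ± 0.17, SE; edgeR adjusted p = 0.0198) and in the mean of the lines (0.41 ± 0.13; 0.0458). The InsE call was lost without InsE replicate 2 or control replicate 1 or 2 (log2 change 0.53 to 0.76, edgeR adjusted p = 0.0656 to 0.131), and in DESeq2 (adjusted p = 0.0888), in limma on log2(TPM + 1) (0.201) and in limma on log2(TPM + 0.1) (0.199). The call for the mean was lost without InsE replicate 2, InsF replicate 2, InsG replicate 1, InsH replicate 1 or 2 or control replicate 1 or 2 (log2 change 0.31 to 0.52, edgeR adjusted p = 0.0537 to 0.325), and with no filter (adjusted p = 0.0502), in DESeq2 (0.194), in limma on log2(TPM + 1) (0.164) and in limma on log2(TPM + 0.1) (0.164).

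Other called voltage-gated pores were at low levels. KCND2, the A-type pore Kv4.2, fell in the mean of the lines (-0.68 ± 0.23, SE; edgeR adjusted p = 0.0483) and had 0.806 to 1.74 CPM in the lines against 1.90 and 2.28 CPM in control. That call was lost without InsE replicate 1 or 2, InsF replicate 1 or 2, InsH replicate 1 or 2 or control replicate 1 or 2 (log2 change -0.81 to -0.54, edgeR adjusted p = 0.0542 to 0.36), and with library sizes alone (adjusted p = 0.0631), in DESeq2 (0.263), in limma on log2(TPM + 1) (0.728) and in limma on log2(TPM + 0.1) (0.611). KCNG3, an electrically silent subunit that modifies other pores, fell in InsH (-1.50 ± 0.45; 0.0446) and in the mean (-0.91 ± 0.30; 0.0496) at 0.166 to 0.414 CPM in the lines and 0.565 and 0.570 CPM in control. Both calls were lost without any 1 of the 10 libraries (edgeR adjusted p = 0.0652 to 0.197 in InsH and 0.0806 to 0.286 in the mean), and in the other fits that gave a value, apart from edgeR with DESeq2 size factors (adjusted p = 0.0501 to 0.266). KCNS3, another silent subunit, was called only between InsE and the mean of the other lines (0.80 ± 0.23; 0.0352), with 4.32 and 2.75 CPM in InsE against 1.43 to 2.64 CPM in InsF, InsG and InsH. That call was lost without InsE replicate 1, InsF replicate 2, InsH replicate 1 or 2 or control replicate 1 or 2 (log2 change 0.38 to 0.84, edgeR adjusted p = 0.0502 to 0.503), and in DESeq2 (adjusted p = 0.138), in limma on log2(TPM + 1) (0.226) and in limma on log2(TPM + 0.1) (0.243).

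**Figure D3:**
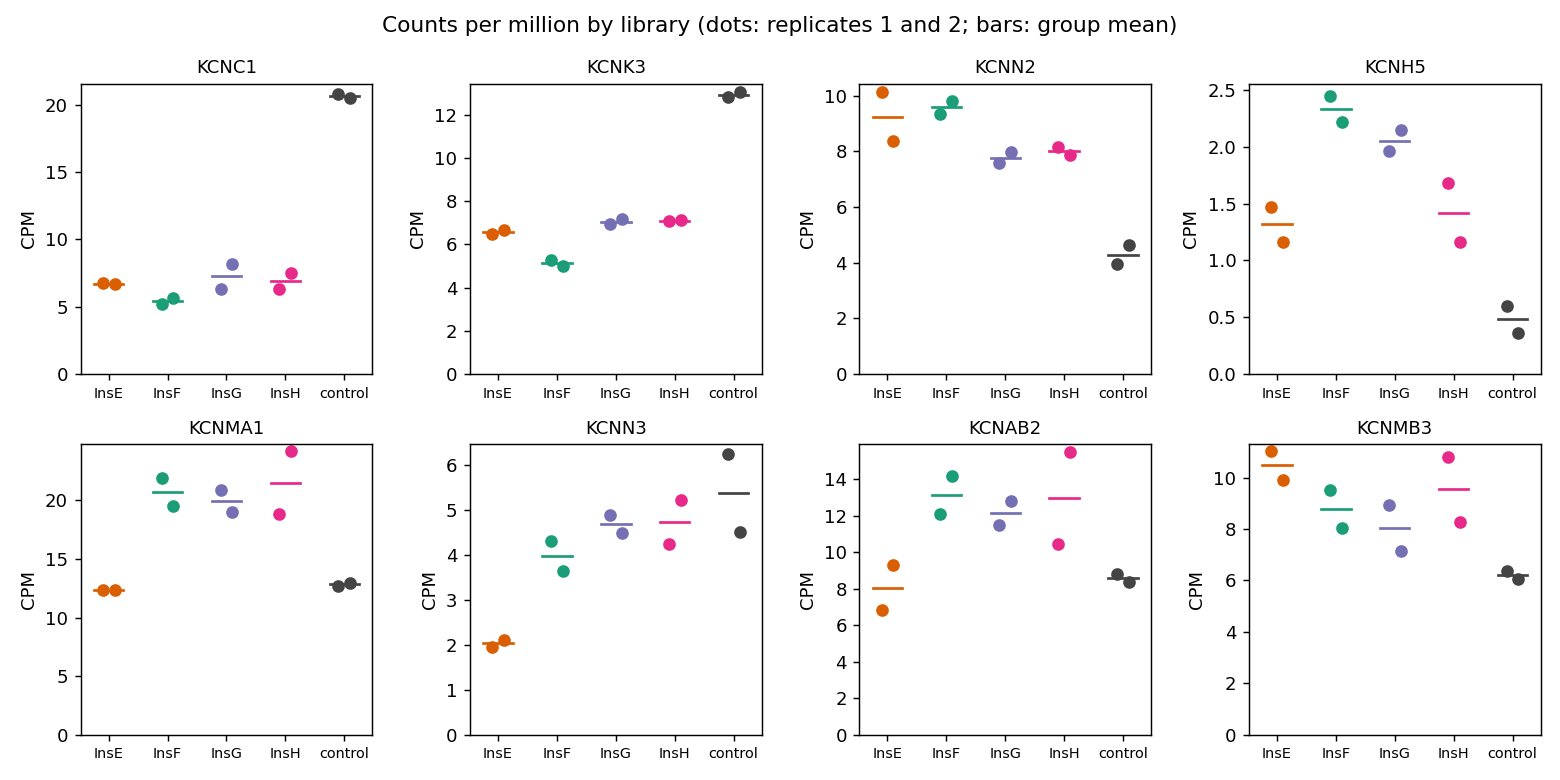
CPM (scaled counts, vertical axes from 0) in each library for 8 potassium channel genes, lines left of control; dots are replicates 1 and 2 and bars are group means. KCNC1 and KCNK3 lie below control in all 8 line libraries, KCNN2, KCNH5 and KCNMB3 lie above it, KCNMA1 and KCNAB2 lie above it in InsF, InsG and InsH, and KCNN3 is lowest in InsE.

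Of the 7 tested auxiliary subunits, edgeR called 1 in InsF, 1 in the mean of the lines and 4 between InsE and the other lines. Of all tested genes, 22.3%, 27.6% and 24.2% were called in those comparisons, in that order. In InsE, InsG and InsH edgeR called 0 of the 7, where 23.2%, 20.3% and 18.4% of all genes were called. There 3, 2 and 2 of the 7 had an unadjusted p under 0.05, and DESeq2 and limma also called 0. With library sizes alone, edgeR called KCNAB1 in InsE and KCNAB2 in InsH (adjusted p = 0.0422 and 0.0489), and with no filter it called KCNAB2 in InsG and InsH (0.00681 and 0.00201). Without InsH replicate 1, edgeR called KCNAB2 in InsG (0.0478) and InsH (0.0221). KCNE4, a single-span subunit that inhibits Kv7.1, had 16.3 to 21.5 CPM in the lines and 20.0 and 20.3 CPM in control. InsE was slightly below the other lines (-0.22 ± 0.07, SE; edgeR adjusted p = 0.0493), a call lost without InsE replicate 2, InsF replicate 1 or 2, InsG replicate 1 or 2, InsH replicate 1 or 2 or control replicate 1 or 2 (log2 change -0.22 to -0.12, edgeR adjusted p = 0.0677 to 0.328), and with DESeq2 size factors in edgeR (adjusted p = 0.0511), with library sizes alone (0.0502), with no filter (0.0811) and in DESeq2 (0.276).

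The cytoplasmic beta subunits of Kv1 channels differed between InsE and the other lines. KCNAB2 had 6.82 and 9.31 CPM in InsE, 12.1 and 14.2 CPM in InsF, 11.5 and 12.8 CPM in InsG and 10.4 and 15.5 CPM in InsH, against 8.82 and 8.37 CPM in control. InsE overlapped with control and the other 3 lines lay above it. The rise in InsF passed the test (0.60 ± 0.19, SE; edgeR adjusted p = 0.0486), and was lost without InsF replicate 1 or 2, InsG replicate 1 or 2 or control replicate 1 or 2 (log2 change 0.49 to 0.72, edgeR adjusted p = 0.0587 to 0.203), and in DESeq2 (adjusted p = 0.0677), in limma on log2(TPM + 1) (0.214) and in limma on log2(TPM + 0.1) (0.219). InsE was below the mean of the other lines (-0.70 ± 0.17; 0.0156), lost without InsE replicate 1 (log2 change -0.43, edgeR adjusted p = 0.244), and in limma on log2(TPM + 1) (adjusted p = 0.0782) and in limma on log2(TPM + 0.1) (0.076).

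KCNAB1 and KCNAB3 went the other way. KCNAB1 had 0.896 and 0.846 CPM in InsE and 0.248 to 0.538 CPM in the other lines, so that InsE was higher by 1.12 ± 0.34 on the log2 scale (SE; edgeR adjusted p = 0.0417). That call was lost without InsE replicate 1 or 2, InsF replicate 1 or 2, InsG replicate 1 or 2, InsH replicate 2 or control replicate 1 or 2 (log2 change 1.00 to 1.21, edgeR adjusted p = 0.065 to 0.263), and with no filter (adjusted p = 0.0616), in DESeq2 (0.348), in limma on log2(TPM + 1) (0.147) and in limma on log2(TPM + 0.1) (0.122). KCNAB3 had 4.80 and 6.67 CPM in InsE and 2.87 to 5.05 CPM in the other lines (0.58 ± 0.18; 0.0424), a call that was lost without InsE replicate 2, InsF replicate 1 or 2, InsG replicate 1 or 2 or InsH replicate 1 (log2 change 0.38 to 0.60, edgeR adjusted p = 0.0583 to 0.263), and in DESeq2 (adjusted p = 0.151), in limma on log2(TPM + 1) (0.0589) and in limma on log2(TPM + 0.1) (0.0614).

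KCNIP3, a calcium-binding partner of Kv4 pores also known as calsenilin, had 2.08 and 1.59 CPM in InsE, 1.55 and 2.56 CPM in InsF, 2.01 and 1.97 CPM in InsG and 1.64 and 2.15 CPM in InsH, against 2.72 and 3.49 CPM in control. The line libraries were all below control. The mean of the lines was lower by the test (-0.67 ± 0.21, SE; edgeR adjusted p = 0.0394), while no single line passed. The call was lost without InsE replicate 2, InsF replicate 1, InsG replicate 1 or 2, InsH replicate 1 or control replicate 1 or 2 (log2 change -0.85 to -0.49, edgeR adjusted p = 0.0531 to 0.335), and with library sizes alone (adjusted p = 0.052), in DESeq2 (0.175), in limma on log2(TPM + 1) (0.119) and in limma on log2(TPM + 0.1) (0.146).

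Among the calcium-activated channels, KCNN2 rose in all 4 lines and KCNMA1 in 3 of them. KCNN2 encodes SK2, a small-conductance channel gated by calcium through calmodulin. It had 10.1 and 8.36 CPM in InsE, 9.32 and 9.82 CPM in InsF, 7.57 and 7.97 CPM in InsG and 8.15 and 7.87 CPM in InsH, against 3.96 and 4.62 CPM in control. All 8 line libraries lay above both control libraries. The log2 change was 1.14 ± 0.13 for InsE, 1.16 ± 0.13 for InsF, 0.86 ± 0.13 for InsG and 0.91 ± 0.13 for InsH (SE, n = 2 libraries each; edgeR adjusted p = 0.000344, 0.000265, 0.00195 and 0.00152 in that order). These calls, and that for the mean of the lines (1.02 ± 0.11), were kept under every alternative run. The difference among the lines did not pass the test (edgeR adjusted p = 0.237).

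Its relative KCNN3 (SK3), a channel of the platelet-derived growth factor receptor alpha cells of the gut, fell in InsE on the count scale. It had 1.95 and 2.12 CPM in InsE, 4.32 and 3.63 CPM in InsF, 4.88 and 4.47 CPM in InsG and 4.23 and 5.22 CPM in InsH, against 6.24 and 4.52 CPM in control. Both InsE libraries were below all others in CPM. Per length the separation was smaller, with 0.77 and 0.70 TPM in InsE against 0.77 to 1.29 TPM in the other lines and 1.58 and 0.97 TPM in control. The deposited effective length of KCNN3 was 3828 and 4334 bases in InsE and 5182 to 8743 bases in the other libraries. What set that difference in length was not tested. The log2 change in InsE was -1.43 ± 0.21 (SE; edgeR adjusted p = 0.00129), and it ran from -0.43 to -0.20 in the other lines, which did not pass. The lines differed (edgeR adjusted p = 0.0136), as did InsE from the mean of the other lines (-1.15 ± 0.19; 0.00201). These InsE calls were kept without each library in turn, but on the log2(TPM + 1) scale neither passed (limma adjusted p = 0.165 against control and 0.216 against the other lines). Averaged over the lines, the fall (-0.57 ± 0.15; 0.0175) was lost without control replicate 1 (log2 change -0.31, edgeR adjusted p = 0.349), and in DESeq2 (adjusted p = 0.105), in limma on log2(TPM + 1) (0.362) and in limma on log2(TPM + 0.1) (0.404).

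The third SK gene, KCNN1, did not pass the filter. Its expected counts were 17 and 3 for InsE, 8 and 6 for InsF, 15 and 3 for InsG, 8 and 1 for InsH, against 0 and 1 for control. Summed over the 4 lines, 61 counts stood against 1 in control, a depth-scaled ratio of 18.0 with an exact 95% interval of 3.11 to 722 for counting error only. With no filter on low counts, edgeR called it higher in all 4 lines (log2 change 3.23 to 4.14, adjusted p = 0.000702 to 0.0347). Its level was low throughout, at 0.08 to 0.78 TPM in the lines and 0 and 0.05 TPM in control.

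KCNMA1, the pore of the large-conductance BK channel, was higher in 3 lines. It had 12.3 and 12.4 CPM in InsE, 21.9 and 19.6 CPM in InsF, 20.9 and 19.1 CPM in InsG and 18.8 and 24.2 CPM in InsH, against 12.7 and 13.0 CPM in control. InsE lay just below control, and no library of InsF, InsG or InsH overlapped with either. The log2 change was -0.05 ± 0.12 for InsE, 0.70 ± 0.12 for InsF, 0.65 ± 0.12 for InsG and 0.72 ± 0.12 for InsH (SE; edgeR adjusted p = 0.796, 0.00259, 0.00463 and 0.00283 in that order). The InsG call was lost without InsG replicate 1 or control replicate 1 (log2 change 0.56 to 0.63, edgeR adjusted p = 0.0524 to 0.0651). The lines differed (edgeR adjusted p = 0.00701), and InsE differed from the mean of the others by -0.74 ± 0.10 (0.000892), a call kept under every alternative run. The 3 rises did not pass on the log2(TPM + 1) scale (limma adjusted p = 0.0775 for InsF, 0.26 for InsG and 0.126 for InsH). Averaged over the lines, the rise (0.51 ± 0.10; 0.00412) was lost without control replicate 1 (log2 change 0.49, edgeR adjusted p = 0.0708), and in limma on log2(TPM + 1) (adjusted p = 0.137) and in limma on log2(TPM + 0.1) (0.135).

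The BK beta subunits, which set the calcium sensitivity of the pore, did not move together. KCNMB2 had 11.1 to 15.1 CPM in the lines and 13.8 and 14.4 CPM in control, and was called in none of the 7 comparisons. KCNMB3 had 11.0 and 9.90 CPM in InsE, 9.52 and 8.04 CPM in InsF, 8.92 and 7.15 CPM in InsG and 10.8 and 8.29 CPM in InsH, against 6.35 and 6.06 CPM in control. Every line library was above control. The rise passed in InsE (0.77 ± 0.16, SE; edgeR adjusted p = 0.00782), InsF (0.51 ± 0.16; 0.0464), InsH (0.64 ± 0.16; 0.0227) and the mean (0.58 ± 0.13; 0.00901).

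The KCNMB3 calls leaned on single libraries. The InsE call was lost without InsE replicate 1 or control replicate 1 or 2 (log2 change 0.68 to 0.80, edgeR adjusted p = 0.0586 to 0.0805). The InsF call was lost without InsE replicate 1 or 2, InsF replicate 1 or 2 or control replicate 1 or 2 (log2 change 0.36 to 0.62, edgeR adjusted p = 0.0561 to 0.284), and in DESeq2 (adjusted p = 0.164), in limma on log2(TPM + 1) (0.127) and in limma on log2(TPM + 0.1) (0.118). The InsH call was lost without InsH replicate 1 or control replicate 1 or 2 (log2 change 0.41 to 0.67, edgeR adjusted p = 0.115 to 0.215), and in DESeq2 (adjusted p = 0.0712), in limma on log2(TPM + 1) (0.0797) and in limma on log2(TPM + 0.1) (0.0737). The call for the mean was lost without control replicate 1 or 2 (log2 change 0.55 to 0.61, edgeR adjusted p = 0.0883 to 0.104). Of the 8979 exon bases of KCNMB3, 3403 (37.9%) overlap exons of PIK3CA on the opposite strand. PIK3CA had 40057 counts over the 10 libraries against 1953 for KCNMB3, so reads from those bases cannot be told apart without a known strand setting. The processed pseudogene LRRFIP1P1, on the same strand as KCNMB3, shares 864 of its exon bases (9.6%) and had 2114 counts. A strand setting would not separate reads from those bases. PIK3CA, named after its values were seen, changed by -0.13, -0.09, 0.09 and -0.06 on the log2 scale in InsE, InsF, InsG and InsH, none of them called.

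KCNU1, the pH-gated Slo3 channel known from sperm, had 0.896 and 0.635 CPM in InsE and 0.911 to 2.24 CPM in the other lines (-0.90 ± 0.28, SE; edgeR adjusted p = 0.0403). That call was lost without InsE replicate 1 or 2, InsF replicate 1 or 2, InsG replicate 2, InsH replicate 1 or control replicate 1 or 2 (log2 change -1.24 to -0.74, edgeR adjusted p = 0.0607 to 0.173), and in DESeq2 (adjusted p = 0.241), in limma on log2(TPM + 1) (0.187) and in limma on log2(TPM + 0.1) (0.126).

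Among the inward rectifiers, KCNJ8 showed the largest difference between InsE and the other lines of the 35 tested members. It encodes Kir6.1, the pore of an ATP-sensitive (KATP) channel of smooth muscle, which closes when ATP is plentiful and needs a sulfonylurea receptor subunit to reach the membrane. KCNJ8 had 1.44 and 1.06 CPM in InsE, 13.0 and 11.4 CPM in InsF, 9.97 and 8.03 CPM in InsG and 10.4 and 10.6 CPM in InsH, against 2.65 and 2.15 CPM in control. Both InsE libraries were below both control libraries, and all libraries of InsF, InsG and InsH were above them. The log2 change was -0.87 ± 0.21 for InsE, 2.33 ± 0.16 for InsF, 1.92 ± 0.17 for InsG and 2.11 ± 0.17 for InsH (SE, n = 2 libraries each; edgeR adjusted p = 0.0165, 1.61e-05, 6.90e-05 and 4.53e-05 in that order). InsE differed from the mean of the other lines by -2.98 ± 0.17 (4.64e-06), and the difference among the 4 lines had an edgeR adjusted p of 3.87e-05. The mean of the lines (1.37 ± 0.14; 0.00014) joins opposite changes and describes no single line.

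The rises in InsF, InsG and InsH and the difference of InsE from them were kept under every alternative run. The fall in InsE was lost without InsE replicate 1 or 2 or control replicate 1 (log2 change -1.20 to -0.70, edgeR adjusted p = 0.0569 to 0.136), and in DESeq2 (adjusted p = 0.0534), in limma on log2(TPM + 1) (0.17) and in limma on log2(TPM + 0.1) (0.0945). Endothelial markers summed to 0.22 to 0.23 TPM in InsE and 0.49 to 0.69 TPM in InsF, InsG and InsH, against 0.21 to 0.25 TPM in control; PECAM1 was at 0 to 0.02 TPM, and none of the 4 markers was called in a line (2 were tested). Their part in the KCNJ8 result was not tested.

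ABCC9, which encodes the SUR2 receptor subunit that assembles with Kir6.1, lies next to KCNJ8 on chromosome 12, with 21.8 kb between them and both on the minus strand. It had 0.384 and 0 CPM in InsE, 7.18 and 6.26 CPM in InsF, 6.68 and 6.36 CPM in InsG and 6.26 and 4.06 CPM in InsH, against 1.24 and 1.49 CPM in control. As for KCNJ8, InsE was lowest and the other 3 lines were above control. Its log2 change was -2.23 ± 0.50 for InsE, 2.32 ± 0.33 for InsF, 2.27 ± 0.33 for InsG and 1.96 ± 0.33 for InsH (SE; edgeR adjusted p = 0.0116, 0.00102, 0.00136 and 0.0034 in that order), from 12 counts in the 2 InsE libraries and 66 in the 2 control libraries. InsE differed from the other lines by -4.41 ± 0.41 (6.83e-05).

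**Figure D4:**
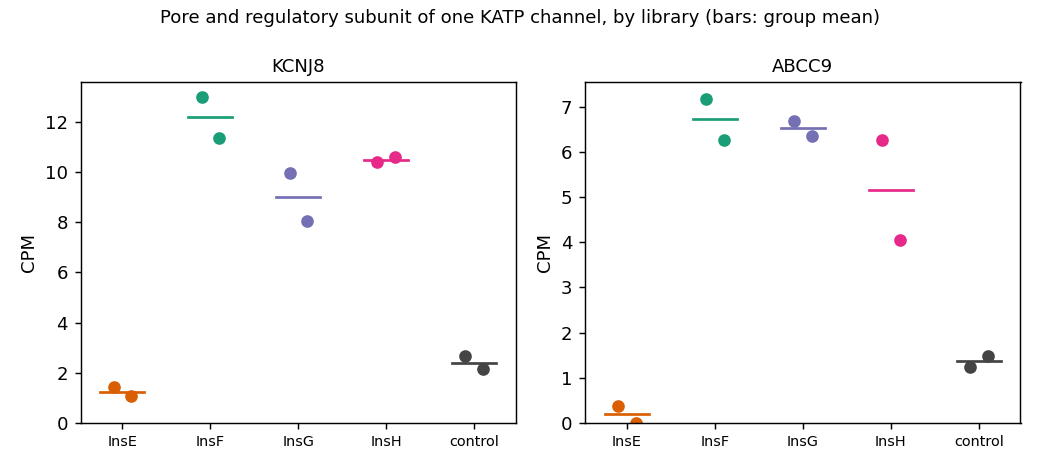
CPM (scaled counts, vertical axes from 0) of KCNJ8 (left) and ABCC9 (right) in each library, lines left of control; dots are replicates 1 and 2 and bars are group means. Both genes are lowest in InsE and lie above control in InsF, InsG and InsH, where KCNJ8 is at 8.03 to 13.0 CPM and ABCC9 at 4.06 to 7.18 CPM.

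The promoters of this neighbouring pair are shown because both genes fell in InsE and rose in the other lines. Both sequences come from RefSeq (GRCh38.p14), each read 5′ to 3′ on the minus strand, and capitals mark GGGCGG or its reverse complement. Bases that GENCODE 29 marks as UTR are left out of the KCNJ8 run. Each stretch precedes the RefSeq start listed first by position, which on the minus strand is the one furthest downstream. Both stretches lie inside the GENCODE 29 genes, which reach 21775581 for KCNJ8 and 21942529 for ABCC9.
KCNJ8 promoter, chr12:21774822-21774956, minus strand: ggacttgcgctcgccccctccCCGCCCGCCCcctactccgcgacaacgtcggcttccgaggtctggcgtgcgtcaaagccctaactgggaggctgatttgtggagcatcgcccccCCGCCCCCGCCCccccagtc
ABCC9 promoter, chr12:21941427-21941676, minus strand: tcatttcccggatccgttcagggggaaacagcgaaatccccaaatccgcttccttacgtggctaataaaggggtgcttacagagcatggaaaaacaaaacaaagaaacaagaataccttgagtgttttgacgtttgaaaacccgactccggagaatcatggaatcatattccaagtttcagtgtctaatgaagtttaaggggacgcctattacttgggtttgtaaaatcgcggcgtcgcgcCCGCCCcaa
The 250-base windows held 15 CG dinucleotides each, with 64.8% G and C for KCNJ8 and 46.0% for ABCC9, against a median of 58.0% over all promoters. KCNJ8 had 4 GC boxes, which overlap in 1 place, and ABCC9 had 1. On either strand, neither held a match to the CTCF core, to the AP-1 site (in 6.57% of promoters) or to the TATA box (in 10.7%).

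Of the 8 tested genes within 500 kb of KCNJ8, a window chosen after its values were seen, ABCC9 was the only one other than PYROXD1, RECQL and LDHB called between InsE and the mean of the other lines. Those 3 differed by -0.53, -0.29 and 0.13 on the log2 scale (edgeR adjusted p = 0.00458, 0.0137 and 0.0205). LDHB, which lies 7 kb from KCNJ8 and nearer to it than ABCC9, changed by 0.09, -0.07, -0.02 and -0.04 in InsE, InsF, InsG and InsH against control, none of them called. In windows of the same size, 0 tested genes were higher and 9 of 18 lower around KCNK3 in the mean of the lines. Around KCNC1, 0 were higher and 3 of 9 lower, where 13.1% of all genes were higher and 14.5% lower. Around KCNJ15, KCNH5 and KCNMA1, which rose in that mean, 0 were higher and 2 of 3, 1 of 3 and 1 of 5 lower. Around KCNN3, which fell, 3 of 37 were higher and 7 lower. Around KCNJ8 itself 2 of 8 were higher and 1 lower, and the 1 gene around KCNN2 was not called.

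The other KATP pair, KCNJ11 (Kir6.2) and ABCC8 (SUR1) on chromosome 11, did not follow. KCNJ11 had 1.21 to 2.43 CPM in the lines and 2.45 and 2.52 CPM in control, with log2 changes of -0.69 to -0.17, and was called in none of the 7 comparisons. ABCC8 did not pass the filter on low counts.

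KCNJ15, which encodes Kir4.2, gave different answers on its 2 scales. Its count level was 14.1 and 13.7 CPM in InsE, 13.5 and 12.2 CPM in InsF, 16.3 and 15.0 CPM in InsG and 15.3 and 15.2 CPM in InsH, against 9.79 and 8.88 CPM in control, with all line libraries above control. The log2 change of the counts was 0.57 ± 0.10 for InsE, 0.46 ± 0.09 for InsF, 0.75 ± 0.09 for InsG and 0.70 ± 0.09 for InsH (SE; edgeR adjusted p = 0.00265, 0.00705, 0.000559 and 0.001 in that order). The InsF call was lost without InsF replicate 1 or control replicate 2 (log2 change 0.38 to 0.39, edgeR adjusted p = 0.0732 to 0.0758), and in DESeq2 (adjusted p = 0.0728). On the TPM scale it had 7.16 and 8.43 TPM in InsE, 7.68 and 7.04 TPM in InsF, 9.24 and 7.52 TPM in InsG and 8.78 and 7.99 TPM in InsH, against 8.80 and 6.14 TPM in control, and there the lines lay within the control range or just above it. On the log2(TPM + 1) scale the change was 0.07, -0.002, 0.16 and 0.17 in InsE, InsF, InsG and InsH (limma adjusted p = 0.605 to 0.998).

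The deposited effective length of KCNJ15 was 2308 to 3052 bases in the line libraries and 1631 and 2128 bases in control. It is the abundance-weighted length of a gene's transcripts that RSEM divides by to obtain TPM. The count level thus separated lines from control and the level per length did not, and what set the difference in length was not tested.

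**Figure D5:**
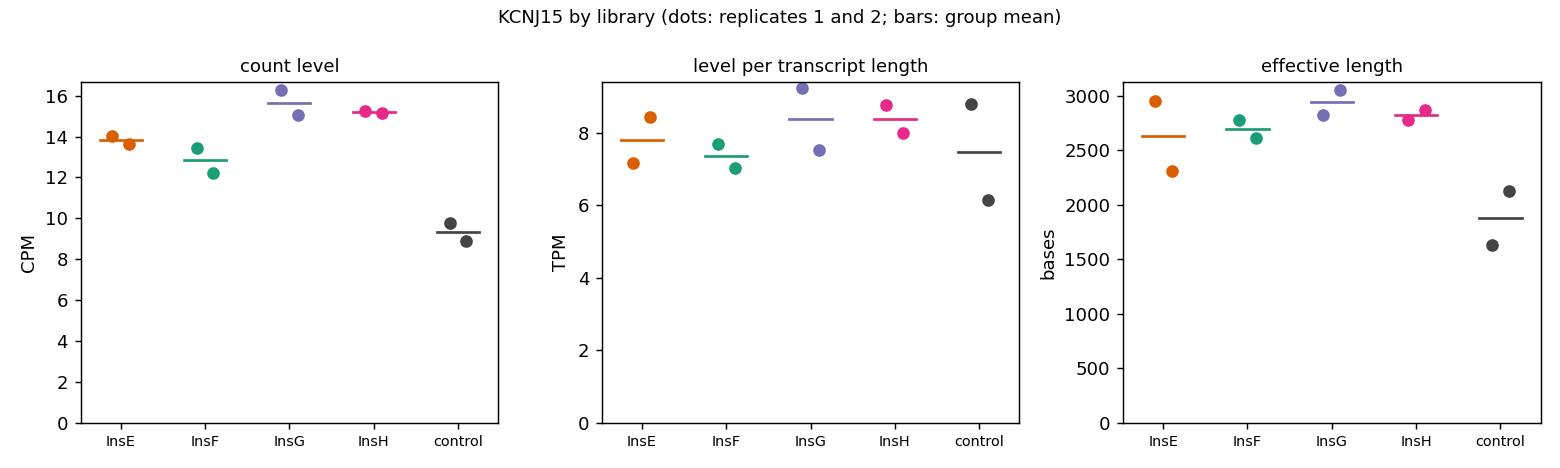
KCNJ15 in each library as CPM (left), TPM (middle) and effective length in bases (right), all axes from 0 and lines left of control; dots are replicates 1 and 2 and bars are group means. Counts and effective length are higher in the 8 line libraries than in control, whereas TPM overlaps between lines (7.04 to 9.24) and control (6.14 and 8.80).

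KCNJ6 (GIRK2), a channel opened by G proteins that lies 34.2 kb from KCNJ15, had 3.14 and 2.22 CPM in InsE and 0.911 to 1.70 CPM in the other lines. InsE was higher than their mean (0.99 ± 0.25, SE; edgeR adjusted p = 0.0181), a call lost without InsE replicate 1 (log2 change 0.68, edgeR adjusted p = 0.275), and in DESeq2 (adjusted p = 0.0995), in limma on log2(TPM + 1) (0.296) and in limma on log2(TPM + 0.1) (0.313).

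Among the two-pore-domain channels, KCNK3 fell in every line. It encodes TASK-1, a leak channel closed by acid outside the cell. It had 6.50 and 6.67 CPM in InsE, 5.28 and 4.98 CPM in InsF, 6.94 and 7.16 CPM in InsG and 7.08 and 7.12 CPM in InsH, against 12.8 and 13.0 CPM in control. All line libraries lay below both control libraries, and InsF was lowest. The log2 change was -0.98 ± 0.10 for InsE, -1.33 ± 0.10 for InsF, -0.88 ± 0.10 for InsG and -0.86 ± 0.10 for InsH (SE, n = 2 libraries each; edgeR adjusted p = 0.000158, 2.25e-05, 0.000287 and 0.000345 in that order), and no library, left out in turn, ended a call. Averaged over the lines it was -1.01 ± 0.07 (1.22e-05). The lines differed among themselves (edgeR adjusted p = 0.0416). In InsH alone the call was lost on the log2(TPM + 1) scale (limma adjusted p = 0.0757), as it was on log2(TPM + 0.1) (0.101).

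The KCNK3 promoter is shown as that of the other member called lower in all 4 lines (RefSeq, GRCh38.p14), 5′ to 3′ up to the first base that GENCODE 29 marks as UTR, with the same motif in capitals.
KCNK3 promoter, chr2:26692472-26692689, plus strand: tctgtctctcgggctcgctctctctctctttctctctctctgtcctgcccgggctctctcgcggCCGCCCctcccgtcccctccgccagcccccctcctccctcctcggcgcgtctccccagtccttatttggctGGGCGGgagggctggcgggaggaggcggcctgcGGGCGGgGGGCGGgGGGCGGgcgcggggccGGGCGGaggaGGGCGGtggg
Its 250-base window held 7 GC boxes and 27 CG dinucleotides. It also held 1 match to TTCAGCACC, the left part of the site of the repressor REST, on the reverse strand and past the printed stretch, which 0.288% of all promoters held. REST itself was called in no line (log2 change -0.26 to -0.09).

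KCNK5, the related leak channel TASK-2 that is opened by alkaline conditions, had 20.5 and 23.2 CPM in InsE, 25.2 and 31.6 CPM in InsF, 24.7 and 28.5 CPM in InsG and 24.5 and 28.2 CPM in InsH, against 21.6 and 20.6 CPM in control. InsE overlapped with control, and the other 3 lines lay above it. The rise passed in InsF (0.41 ± 0.12, SE; edgeR adjusted p = 0.0404), a call that was lost without InsF replicate 2 or control replicate 1 or 2 (log2 change 0.25 to 0.45, edgeR adjusted p = 0.144 to 0.216), and in DESeq2 (adjusted p = 0.0593). KCNK2 (TREK-1, opened by membrane stretch) had 0.55 to 2.42 TPM in the lines and 1.71 and 1.53 TPM in control, and KCNK13 (THIK-1) had 0.76 to 1.49 TPM in the lines and 1.3 and 1.11 TPM in control. With the filter on low counts, edgeR called neither in any comparison. With no filter on low counts, edgeR called KCNK2 lower in InsE against control and against the other lines (adjusted p = 0.00624 and 0.0145), and limma called it against the other lines on both TPM scales (0.0214 and 0.023). With no filter edgeR also called KCNK5 in InsG, InsH and the mean (0.0246, 0.042 and 0.0183) and between InsE and the other lines (0.00254).

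The remaining 11 tested members, those called in none of the 7 comparisons, were KCNC4, KCND1, KCNIP2, KCNIP4, KCNJ4, KCNJ11, KCNK2, KCNK13, KCNK15, KCNMB2 and KCNV1. Of these, KCNK15 and KCNJ4 had the largest falls in the mean of the lines (-1.90 ± 0.73 and -1.19 ± 0.54, SE), at under 1 CPM in every library, with edgeR adjusted p of 0.0829 and 0.129. With no filter, KCNK15 was called in the mean (edgeR adjusted p = 0.00622) and KCNJ4 in InsE (0.0359). Of the 2599 exon bases of KCNK15, 506 (19.5%) overlap exons of RIMS4 on the opposite strand. RIMS4 had 1646 counts over the 10 libraries against 51 for KCNK15, so the limit given for KCNMB3 and PIK3CA holds here too.

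Proteins that assemble with potassium channels or place them in the membrane were taken from a list of 17, of which 10 were tested. InsE had 1 higher and 3 lower, InsF had 2 of each, InsG had 2 higher and 1 lower, and InsH had 1 of each, where 23.2%, 22.3%, 20.3% and 18.4% of all genes were called in that order. CNTNAP2, the cell adhesion protein that clusters Kv1 channels beside the nodes of myelinated axons, had 3.81 and 2.86 CPM in InsE, 3.07 and 3.70 CPM in InsF, 4.93 and 4.39 CPM in InsG and 3.49 and 4.64 CPM in InsH, against 22.0 and 22.9 CPM in control. All line libraries were far below control, with log2 changes of -2.68 ± 0.17 for InsE, -2.75 ± 0.16 for InsF, -2.24 ± 0.15 for InsG and -2.50 ± 0.16 for InsH (SE; edgeR adjusted p = 1.05e-05, 4.91e-06, 1.96e-05 and 1.29e-05 in that order). AMIGO1, an adhesion protein that binds Kv2.1, was lower in InsE (-1.57 ± 0.32; 0.00722) and in the mean of the lines (-1.02 ± 0.22; 0.00784). NEDD4L, a ubiquitin ligase that removes channels from the membrane, was higher in InsE, InsF and InsG by 0.27, 0.34 and 0.28 on the log2 scale of the counts. In TPM the libraries of these lines, at 9.24 to 16.65 TPM, lay between the control libraries at 17.5 and 7.06 TPM.

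Other ion transport genes were read beside the channels. Of 23 sodium, calcium and pacemaker pore genes, 7 were tested, and CACNA1D, the pore of the L-type calcium channel Cav1.3, was the one called in all 4 lines. It had 14.0 and 12.3 CPM in InsE, 15.4 and 15.7 CPM in InsF, 11.9 and 13.9 CPM in InsG and 13.2 and 14.0 CPM in InsH, against 5.92 and 4.63 CPM in control, with no overlap, and log2 changes of 1.31 ± 0.14 for InsE, 1.54 ± 0.13 for InsF, 1.25 ± 0.14 for InsG and 1.34 ± 0.14 for InsH (SE; edgeR adjusted p = 0.000189, 6.09e-05, 0.000276 and 0.000206 in that order). CACNA1H, a T-type calcium channel pore, was lower in InsE (-1.26 ± 0.16; 0.000606). ANO1, the calcium-activated chloride channel of pacemaker cells, was lower in all 4 lines, with log2 changes of -0.84, -0.81, -0.72 and -0.70 in InsE, InsF, InsG and InsH. Of 19 tested pacemaker and calcium store genes, ANO1 among them, 11 were lower and 0 higher in InsE, 5 lower and 4 higher in InsF, 6 lower and 3 higher in InsG, and 5 lower and 1 higher in InsH. Of all tested genes, InsE had 12.4% lower and 10.8% higher, InsF had 11.3% lower and 10.9% higher, InsG had 10.5% lower and 9.86% higher, and InsH had 9.46% lower and 8.95% higher.

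The sodium pump makes the potassium gradient that these channels use. Of its 7 tested subunit genes, 1 was higher and 1 lower in InsE, and 1 was higher and 2 lower in each of InsF, InsG and InsH, beside the shares of all genes just given. ATP1B1, a beta subunit, was lower in all 4 lines (-0.69, -0.26, -0.25 and -0.29 in InsE, InsF, InsG and InsH) and ATP1B3 higher in all 4 (0.28, 0.23, 0.28 and 0.23). FXYD6, a regulatory subunit, was lower in InsF, InsG and InsH (-0.75, -0.61 and -0.58; edgeR adjusted p = 0.00358, 0.0114 and 0.0158) and was not called in InsE (-0.20).

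Of 4 tested smooth muscle markers, MYOCD and ACTG2 rose in InsF, InsG and InsH, the lines in which KCNJ8, ABCC9 and KCNMA1 rose. SMTN was lower in InsE and InsG (-0.30 and -0.40 on the log2 scale), and MYH11 was called in no line. MYOCD, the smooth muscle transcription coactivator, changed by 1.91, 3.92, 3.85 and 3.54 on the log2 scale in InsE, InsF, InsG and InsH, and the actin gene ACTG2 by -0.38, 2.01, 1.17 and 1.49; neither was called in InsE. MYOCD stayed below 1 TPM, and ACTG2 was at 4.70 to 25.3 TPM in the lines against 5.39 to 5.53 TPM in control. Of the 6 smooth muscle markers 2 were at 1 TPM or more in both libraries of each group. Of the 9 markers of stromal tumour and Cajal cells, 7 were lower and 0 higher in InsE. InsF had 5 lower and 0 higher, and InsG and InsH each had 5 lower and 1 higher. The shares of all genes in these lines are those given above for the pacemaker genes. The part of any change in cell state in the channel values was not tested. In bulk RNA, fewer cells that express a gene and less RNA per cell cannot be told apart.

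The RefSeq promoter table held 71 of the 95 genes and 26 of the 35 tested. On a 250-base window before the start, 18 of those 26 genes (69.2%) had a GC box in some promoter, against 46.2% of all 27305 genes, and 7 (26.9%) had an AP-1 site, against 8.06%. For the CTCF core it was 1 gene, KCNH2, against 2.51% of all genes. These are counts of letters in a window and say nothing of which factor binds there. The 26 genes passed the filter on low counts, whereas the 27305 include genes that did not, so the shares compare unlike sets. Whether the shares of the channel genes differ from those of other genes that passed the filter was not tested.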

How the data were processed

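Poly(A) RNA from GIST-T1 cells was sequenced in 10 libraries, 2 for each of 4 lines and control, per the labels' protocols. The submitters' processing notes name hg38, DESeq2 1.38.3, RSEM 1.3.2 and STAR 2.5.3, with no role for each, and no source used here gives a strand setting. The authors deposited expected counts, TPM and effective lengths per gene and library. A further table of TPM has 10 columns whose names match no label, and it was not used.

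After rounding, the expected counts went into edgeR 4.0.16 in R 4.3.3 (TMM scaling, filterByExpr with a minimum count of 10, robust quasi-likelihood fit over all 10 libraries, 5 residual degrees of freedom), with Benjamini-Hochberg adjustment over 15554 genes and a threshold of 0.05. An SE is the log2 change divided by the square root of its F value. CPM compares a gene between libraries, and TPM compares genes. Alternatives were DESeq2 size factors, library sizes alone, no filter, DESeq2 1.42.0, a replicate block, limma 3.58.1 on log2(TPM + 1) or log2(TPM + 0.1), and leaving out each library. Intervals on counts cover counting error only. On simulated counts for InsE against control with 15554 genes, 58.2% of 1.5-fold, 79.1% of 2-fold and 97% of 4-fold changes were recovered, with 9 false calls. The changed genes were drawn from those with a mean of at least 1 CPM, and all 4 lines were changed alike. Recovery for members below that level was not simulated. Positions come from GENCODE 29.

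The values of 2 called members are not reported here, though the counts include them. Every other member called in some comparison is named with its statistics, and those called against control with a mean of 1 TPM or more in some group have their value in every library. Uncalled members at that level are named with their range. The members, gene lists and tests were chosen with earlier results of these data known.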

Additional observations from a re-analysis of the deposited data

Results flagged for a closer look

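Members whose change against control differed between lines are listed here; each difference was tested in edgeR, adjusted over all genes. Among the 4 lines the adjusted p was 3.87e-05 for KCNJ8, 0.00701 for KCNMA1, 0.0136 for KCNN3, 0.0416 for KCNK3 and 0.0439 for KCNH2. KCNK3 was below control in all 8 line libraries, and KCNN3 passed against control in InsE and in no other line.

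InsE minus the mean of InsF, InsG and InsH, on the log2 scale, was -2.98 for KCNJ8, -1.15 for KCNN3, -0.90 for KCNU1, -0.70 for KCNAB2, -0.74 for KCNMA1, -0.28 for KCNH2 and -0.22 for KCNE4. It was 1.12 for KCNAB1, 0.99 for KCNJ6, 0.80 for KCNS3 and 0.58 for KCNAB3. In that comparison 12 of the 35 tested members were called, beside 24.2% of all genes. KCNJ8, KCNMA1 and KCNN3 kept this call without each library in turn.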

How the results depend on the processing

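Of 67 called values, 33 kept direction and threshold whichever single library was left out and 34 lost the threshold for some library. The threshold was lost by 25 of the called values in DESeq2 (which gave no adjusted p for the 2 of KCNG3), 34 on log2(TPM + 1), 37 on log2(TPM + 0.1), 7 with library sizes alone, 7 with no filter, 2 with the replicate block and 1 with DESeq2 size factors in edgeR. Calls gained numbered 21 with the replicate block, 13 with no filter, 4 with library sizes alone and 3 on each TPM scale. One value turned: KCNJ15 in InsF was -0.002 on the log2(TPM + 1) scale in limma. Members called in InsE numbered 14 with the replicate block and 4 under each limma scale. InsF gave 7 in DESeq2, 7 on log2(TPM + 0.1), and 7 to 12 with a library left out. InsG gave 5 under each limma scale. InsH gave 4 under each limma scale and 6 to 9 with a library left out. The mean of the lines gave 8 in DESeq2, 7 on log2(TPM + 1), 6 on log2(TPM + 0.1), and 6 to 14 with a library left out. Among the lines it was 12 with the replicate block, 2 under each limma scale and 1 to 4 with a library left out. InsE against the other lines gave 5 in DESeq2 and 7 under each limma scale, and 5 to 9 with a library left out. With 2 TPM as the minimum, 12 members were detected in InsF, 13 in InsG and 13 in control. The cause of these shifts was not tested.

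The replicate numbers did not pair lines with control. Over 12080 genes, the correlation of replicate 1 minus replicate 2 was 0.595 to 0.662 between lines and 0.023 to 0.074 between a line and control. The lines thus shared a replicate difference that control lacked, so they are not independent repeats of each other. What set it is not in the labels, and its part in the changes against control was not tested. The replicate block fits the same replicate term to lines and control, a limit on the calls it added. The replicate block ended the KCNG3 calls in InsH and in the mean (edgeR adjusted p = 0.0511 and 0.0615). With it 14 members were called in InsF, 12 in InsG, 13 in InsH, 18 in the mean and 15 between InsE and the other lines. It added KCNK5 in InsG, InsH, the mean and InsE against the other lines (edgeR adjusted p = 0.00837, 0.0138, 0.00542 and 0.00375), KCNAB2 in InsG, InsH and the mean (0.00695, 0.00595 and 0.0106), KCNAB1 and KCNAB3 in InsE (0.0388 and 0.0202), KCNIP3 in InsH (0.0483), and KCNK2 and KCNK13 between InsE and the other lines (0.0203 and 0.0406), among others. Replicate 2 held 9399554 to 20078653 counts and replicate 1 held 22912425 to 42499885, which limits the low genes most.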
